A study of Mus musculus with 4 samples.

Results

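Cux2 excitatory neurons of the mouse cerebral cortex were examined by single-nucleus RNA sequencing (snRNA-seq). The nuclei were chosen by counts of 11 genes in the 2 libraries labelled cortex. A nucleus was included when it held at least 2 unique molecular identifiers (UMIs, each standing for 1 captured RNA molecule) of Slc17a7, the vesicular glutamate transporter of cortical excitatory neurons, and at least 3 of Cux2, a homeobox transcription factor of upper-layer neurons. It held at most 2 UMIs each of Rorb, Hs3st4 and Tshz2, which mark excitatory neurons of other layers, and none of Gad1 and Gad2, the GABA-synthesising enzymes. The sum of Mog, Aqp4, Csf1r and Cldn5, which mark oligodendrocytes, astrocytes, microglia and endothelial cells, was at most 1. The rule was met by 374 nuclei of 37538 in these libraries and of 78728 in the whole series: 168 from the library labelled cortex AAV-CTRL and 206 from that labelled cortex AAV-VEGF-C.

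The study asked how VEGF-C, a growth factor of lymphatic vessels, alters the brain when an adeno-associated virus (AAV9) carrying its gene is injected into the cisterna magna. Nuclei came from cortex and striatum of C57BL/6J males aged 8 weeks that received AAV-VEGF-C, encoding full-length mouse VEGF-C, or AAV-CTRL, the same serotype encoding a soluble VEGFR-3 ectodomain fused to Ig that does not bind VEGF-C. No group was free of virus. Tissue of 5 mice was pooled for each group before the nuclei were isolated, so each of the 4 libraries is 1 sample, and the cortex and striatum libraries of a treatment came from the same pool of mice. Animals cannot be told apart within a library.

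Layer 2/3 pyramidal neurons are the intratelencephalic cells of the upper cortex. They receive input from layer 4 and from other cortical areas, and send axons to layer 5, to neighbouring areas and through the corpus callosum. Cux1, Cux2 and Pou3f2 are transcription factors of this lineage, and Rasgrf2, Otof, Lamp5, Calb1 and Wfs1 are among the genes used to recognise it. VEGF-C acts mainly through the receptor VEGFR-3 (Flt4), with neuropilins as co-receptors.

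The 2 libraries labelled cortex held 17168 and 20370 nuclei and 63165470 and 78332657 UMIs. They shared 94 cell barcodes, 0.548% and 0.461% of their nuclei. The excitatory gate (the same limits on Slc17a7, Gad1, Gad2 and the glial and vascular genes) held 21.0% and 22.1% of these nuclei, against 1.40% and 1.14% in the libraries labelled striatum. Genes of striatal projection neurons did not follow the labels. The dopamine receptor gene Drd1 was at 27.0 and 34.3 counts per 1000000 UMIs (CPM) over all nuclei labelled cortex and at 11.1 and 9.97 CPM over those labelled striatum, and Ppp1r1b at 62.6 and 74.8 against 18.1 and 18.1 CPM. The region names are therefore given as labels. In the Cux2 nuclei themselves the summed level of 11 striatal projection neuron genes was 1878 and 1874 CPM, against 1589 to 2158 CPM in the other excitatory gates below.

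Cux2 nuclei made up 0.979% (95% exact binomial interval 0.837 to 1.14) of the AAV-CTRL library and 1.01% (0.878 to 1.16) of the AAV-VEGF-C library. The ratio of the shares was 1.03, with an interval of 0.839 to 1.28. Within the excitatory gate they were 4.65% of 3610 and 4.58% of 4497 nuclei. These intervals cover counting error only, as do all intervals below, and with 1 library per treatment there is no replicate check. The requirement for Cux2 removed most nuclei: of the excitatory gate, 302 and 339 nuclei held 3 or more UMIs, and the limit on Rorb left 230 and 257 of these.

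The Cux2 nuclei were deeper than most. A nucleus held 2209 UMIs at the lowest, 6450 at the median and 13224 at the highest in AAV-CTRL, and 1706, 6779.5 and 16072 in AAV-VEGF-C, against medians of 4645.5 and 4749 in the excitatory gate. A rule that asks for 3 UMIs of a gene favours deep nuclei. At the median 2870.5 and 2976 genes were detected. With every nucleus reduced at random to a depth of 3000 UMIs, for which 5 and 9 nuclei were too shallow, the medians were 1641 and 1670 genes. Scrublet called 5 (2.98%) and 8 (3.88%) of the Cux2 nuclei doublets, against 4.49% and 5.95% of all nuclei in these libraries.

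The values that chose the nuclei are a description only. Slc17a7 stood at 555 and 553 CPM (AAV-CTRL and AAV-VEGF-C, in this order throughout) and Cux2 at 652 and 614 CPM. Rorb was at 50.3 and 42.9, Hs3st4 at 46.9 and 54.8 and Tshz2 at 23.9 and 19.7 CPM. Mog, Aqp4 and Csf1r lay between 2.81 and 9.38 CPM, and Cldn5 was at 0.853 (1 UMI) and 5.62 CPM (8 UMIs). At the edge of the rule, the 125 and 136 nuclei with 2 UMIs of Cux2 that met all other terms held 9268 and 9275 CPM of the 22 layer 2/3 type genes summed, and the 71 and 81 members with exactly 3 held 8951 and 9965 CPM. Nuclei with no Cux2 UMI held 5752 and 5990 CPM. The limit at 3 UMIs therefore divides nuclei of like layer 2/3 content.

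The layer 2/3 label was examined with 22 genes that the rule did not use. Their summed level was 9148 and 9795 CPM in Cux2 nuclei. In Rorb-high nuclei (at least 3 Rorb UMIs, 229 and 355 nuclei) it was 5656 and 5988 CPM. In Hs3st4-high nuclei (750 and 992) it was 4196 and 4064 CPM, and in Tshz2-high nuclei (152 and 168) 6668 and 6951 CPM. Each of these gates asked for at least 3 UMIs of its named gene and kept the other limits of the rule, with no limit on Cux2. They could thus hold nuclei with 3 or more Cux2 UMIs, which were not counted. Both Cux2 sums lay above every sum of the other gates. Lrrtm4, a synaptic adhesion gene, supplied 4642 and 4801 CPM of the total. Genes of other layers were low in comparison: 2859 and 2885 CPM for 20 layer 4/5 type genes (4589 and 4747 in Rorb-high nuclei) and 337 and 332 CPM for 15 layer 6 type genes (1568 and 1626 in Hs3st4-high nuclei). The 9 near-projecting type genes summed to 557 and 599 CPM, the 12 hippocampal type genes to 387 and 386, and the 10 olfactory-cortex type genes to 769 and 876 CPM. The sum of the layer 2/3 type list was thus highest in Cux2 nuclei. The list was chosen with earlier results of these data known, so it is no independent support for the name. Not every member of the list separated the gates, as the values per gene below show.

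**Figure D1:**
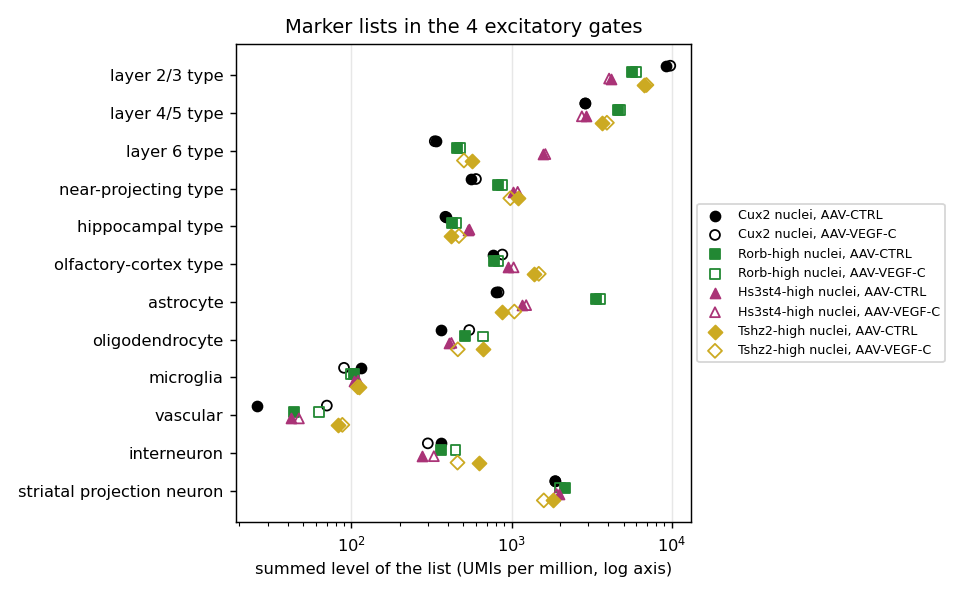
Summed level (CPM, log axis) of 12 marker lists in Cux2, Rorb-high, Hs3st4-high and Tshz2-high nuclei, with 1 point for each gate and library labelled cortex. Cux2 nuclei stood at 9148 and 9795 CPM of the layer 2/3 type list, where no other gate passed 6951, and Rorb-high nuclei stood highest in the astrocyte list, at 3358 and 3572 CPM.

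Single members of the layer 2/3 list differed in how many nuclei showed them. Mef2c, a transcription factor of activity-dependent synapse remodelling, had a UMI in 99.7% of the 374 nuclei, Lrrtm4 in 96.5% and Cux1 in 84.2%. Lamp5 was seen in 63.9%, Calb1 (calbindin) in 39.0%, Stard8 in 39.0% and Trpc6, a cation channel gene, in 38.0%. Wfs1 was seen in 19.3% and Otof in 15.8%. In oligodendrocyte nuclei of the same libraries, which should lack neuronal genes, Trpc6 had a UMI in 2.02% and 2.04%, Otof in 2.82% and 0.583%, and Lamp5 in 15.7% and 16.6%, at median depths of 1720.5 and 1786 UMIs against 6450 and 6779.5. After thinning to 3000 UMIs, Trpc6 was seen in 19.0% and 28.9% of Cux2 nuclei and Lamp5 in 35.0% and 44.7%.

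Among transcripts of other cell types, those of astrocytes were lower in Cux2 nuclei than in the other gates. Those of interneurons, oligodendrocytes, microglia and vascular cells were not lower in both libraries. The 10 astrocyte genes summed to 798 and 829 CPM in Cux2 nuclei, 3358 and 3572 in Rorb-high, 1158 and 1234 in Hs3st4-high, and 875 and 1041 in Tshz2-high nuclei. The 10 interneuron genes summed to 363 and 300 CPM, against 276 to 627 CPM in the other gates. The 10 oligodendrocyte genes summed to 365 and 544 CPM, against 407 to 666 CPM. The 9 microglial genes summed to 115 and 89.9 CPM, against 99.8 to 112 CPM, and the 10 vascular genes to 25.6 and 70.3 CPM, against 41.7 to 87.8 CPM. The Rorb-high gate thus carried the most astrocyte RNA. Calls that changed without its astrocyte-bearing nuclei are named below only among the genes highest and lowest in Cux2 nuclei. Other genes reported as called, such as Rasgrf2, Stard8, Rgs6, Grik1, Grik3, Il1rapl2 and Sulf2, were not followed gene by gene in that setting.

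Genes that set Cux2 nuclei apart from the other excitatory gates were tested on UMI sums of the 4 gates in the 2 libraries with edgeR, the library kept as a block, after leaving out the 11 genes of the rule. Of 11549 genes tested, 44 (0.381%) were higher in Cux2 nuclei than in each of the 3 other gates and 43 (0.372%) were lower, at an adjusted p below 0.05 and a log2 difference of at least 1 in all 3 contrasts. The block takes out a general difference between the 2 libraries. The p-values rest on counting error and on how much the differences between gates varied from 1 library to the other. That variation was estimated with information shared over the genes tested, as each gene alone has 3 residual degrees of freedom. The 2 libraries also differ in treatment, and the p-values do not measure the spread between animals. Every gate was chosen on counts of the same nuclei, so genes that vary with the rule's genes differ by that choice. Within AAV-CTRL alone 19 of the 44 and 31 of the 43 differed by at least 1 on the log2 scale in all 3 contrasts, and within AAV-VEGF-C alone 32 and 37 did. The genes were selected on these same libraries, so this describes the 2 libraries and is no independent support.

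Among the 22 layer 2/3 type genes, 4 were higher than in all 3 gates and none was lower: Rasgrf2, Otof, Stard8 and Trpc6. The median log2 difference of the list was 0.71 against Rorb-high, 1.25 against Hs3st4-high and 0.61 against Tshz2-high nuclei, where the medians over all genes tested were -0.0002, 0.005 and -0.002. Trpc6, which codes for a diacylglycerol-gated calcium-permeable channel (chromosome 9, 8544142 to 8680741, plus strand, GRCm38), stood at 113 and 128 CPM in Cux2 nuclei and at 19.6 to 44.2 CPM in the 6 other sums. The Cux2 sums lay above all of these, and its log2 differences were 1.95 to 2.28 (edgeR, largest adjusted p 3.86e-11). Otof, which encodes otoferlin, a calcium sensor of vesicle fusion (chromosome 5, 30367062 to 30461932, minus strand), was at 34.1 and 28.8 CPM against 5.38 to 13.0 CPM. Rasgrf2, an exchange factor for Ras, was at 321 and 291 CPM against 66.1 to 163 CPM, with a smallest log2 difference of 1.05. Stard8, a GTPase-activating protein gene, was at 73.4 and 81.5 CPM against 8.08 to 43.0 CPM. With DESeq2 the call of Otof was lost, at a smallest log2 difference of 1.61.

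Other members of the list did not separate the gates. Cux1, at 386 and 405 CPM, differed by 1.83 from Hs3st4-high and 1.35 from Tshz2-high nuclei but by 0.73 from Rorb-high nuclei, below the size asked for. Lamp5 likewise differed by 0.69, 1.63 and 0.61. Cdh13 was at 190 and 215 CPM, and lay lower than in Hs3st4-high nuclei by 0.77 on the log2 scale. Chrm2, the muscarinic M2 receptor, was at 70.8 and 50.6 CPM, below 135 and 114 CPM in Rorb-high nuclei. Wfs1 was at 32.4 and 40.7 CPM and its difference of 0.60 from Tshz2-high nuclei did not pass (edgeR, adjusted p 0.144).

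Beyond that list the gene with the largest smallest difference was Clec18a, a C-type lectin gene (chromosome 8, 111058920 to 111092426, minus strand). It stood at 29.0 and 30.2 CPM in Cux2 nuclei and at 4.53 to 7.77 CPM elsewhere, with log2 differences of 2.07 to 2.59 (edgeR, largest adjusted p 1.25e-05). Sorcs3, a sorting receptor of the VPS10 family that binds proneurotrophins (chromosome 19, 48206025 to 48805505, plus strand), was the most abundant of the 12 genes highest in Cux2 nuclei. Its level was 999.9 and 844 CPM against 282 to 381 CPM, with log2 differences of 1.45 to 1.73 (largest adjusted p 3.17e-18). Gsg1l, an auxiliary subunit of AMPA receptors, was at 263 and 244 CPM against 59.6 to 111 CPM. Megf11, a gene of cell spacing in the retina, was at 99.0 and 87.1 CPM against 16.8 to 40.1 CPM, Prkg2, a cGMP-dependent kinase, at 54.6 and 75.2 against 15.5 to 29.5 CPM, and Igfn1 at 53.8 and 78.0 against 11.2 to 29.5 CPM. Qrfpr, the receptor of the neuropeptide 26RFa, was at 21.3 and 26.7 CPM against 5.13 to 9.35 CPM. For all of these the Cux2 sums lay above the other 6. The calls of Clec18a and Prkg2 were lost after thinning to 3000 UMIs, and that of Qrfpr with DESeq2, with the direction kept. The remaining names were the unannotated loci Gm48530, Gm20063 and Gm11655, with smallest differences of 1.68, 1.27 and 1.27. The call of Gm20063 was lost after thinning and with a Cux2 minimum of 5 UMIs. That of Gm11655 was lost with DESeq2 and without the Rorb-high nuclei that held astrocyte transcripts (smallest difference 1.14). Qrfpr and Gm11655 were not among the genes tested after thinning, so that setting gives no result for them. Rgs6, a regulator of G protein signalling, was higher from a larger base: 1492 and 1515 CPM against 594 to 763 CPM (smallest log2 difference 1.23).

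Genes lower in Cux2 nuclei than in every other gate included Tox, which encodes an HMG-box nuclear factor (chromosome 4, 6686353 to 6991557, minus strand). It was at 36.7 and 33.7 CPM in Cux2 nuclei and at 167 to 373 CPM in the others, with log2 differences of -3.28 to -2.22 (edgeR, largest adjusted p 8.66e-17). Galntl6, a glycosyltransferase gene, was at 185 and 143 CPM against 567 to 632 CPM. St6galnac5, a sialyltransferase of ganglioside synthesis, was at 99.8 and 89.2 CPM against 297 to 380 CPM. Sema3e, a secreted repellent of growing axons and vessels, was at 11.9 and 6.32 CPM against 33.5 to 103 CPM, with the highest values in Hs3st4-high nuclei. Htr1f, the serotonin 1F receptor, was at 51.2 and 30.2 CPM against 76.9 to 300.1 CPM. In each of these the Cux2 sums lay below all 6 others. The call of Htr1f was lost with DESeq2 and after thinning, and DESeq2 called 20 higher and 24 lower genes in all.

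Of the same group, Dach1 was at 12.8 and 11.2 CPM against 25.7 to 61.8, Arhgap12 at 10.2 and 9.84 against 35.9 to 48.8, and Hunk at 6.83 and 15.5 against 25.7 to 39.0 CPM. Gm26905 was at 24.7 and 11.9 CPM against 76.9 to 96.5 CPM, and Gm45846 at 3.41 and 8.43 against 20.6 to 47.7 CPM. Fgfr1, the fibroblast growth factor receptor 1, was at 17.1 and 10.5 CPM against 29.5 to 54.2 CPM, and Unc13c, a vesicle-priming gene, at 10.2 and 24.6 CPM against 49.6 to 104 CPM. The calls of Hunk, Gm45846, Unc13c and Fgfr1 were lost after thinning, and that of Fgfr1 also with a Cux2 minimum of 5 UMIs, with the direction kept. When Rorb-high nuclei with more than 1 UMI of astrocyte genes were left out, the highest of the 3 log2 differences became 0.57 for Fgfr1 and 1.02 for Unc13c. The lower call of these genes against Rorb-high nuclei therefore rested on nuclei with astrocyte transcripts. The count of lower genes fell from 43 to 28 and that of higher genes from 44 to 32, of which 22 and 25 were shared with the full gate.

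**Figure D2:**
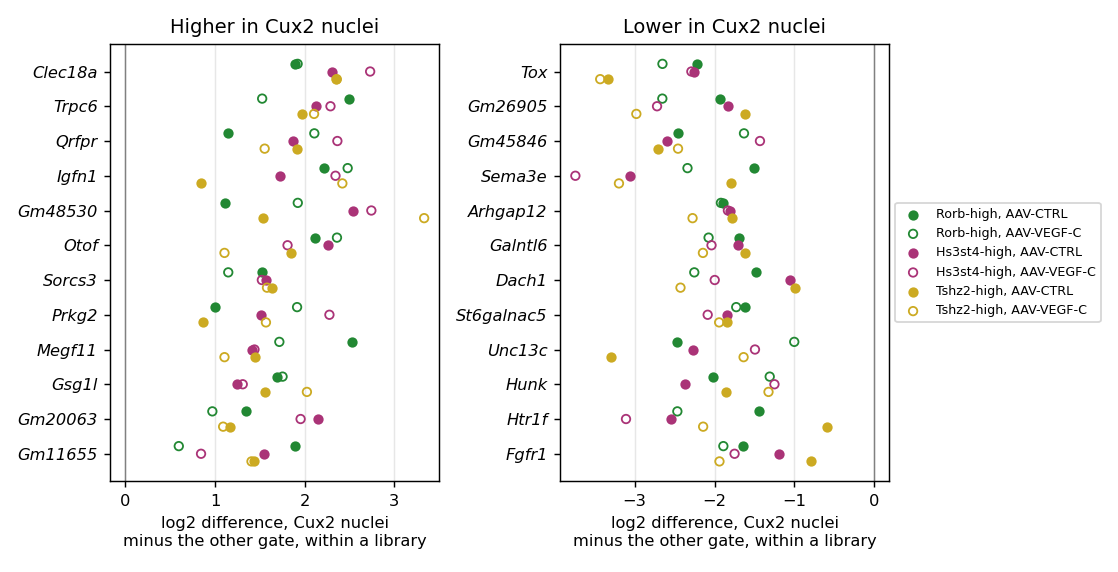
Log2 difference of Cux2 nuclei from each of the 3 other excitatory gates within each library, for the 12 genes highest and the 12 lowest in Cux2 nuclei (filled points AAV-CTRL, open points AAV-VEGF-C). All points of a panel lie on 1 side of 0, and the smallest in size are 0.60 for Gm11655 against Rorb-high nuclei and -0.59 for Htr1f against Tshz2-high nuclei.

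Gene families of neuronal signalling held few calls, as did the whole table: 0.381% of all genes tested were called higher and 0.372% lower, so few calls in lists of this size say nothing particular about a family. Of 21 glutamate receptor genes, 2 were lower than in all 3 gates and none was higher. These were the kainate receptor genes Grik1 (30.7 and 29.5 CPM against 49.8 to 133 CPM) and Grik3 (33.3 and 24.6 CPM against 64.0 to 332 CPM). Of 8 neurotrophin and receptor genes tested, Sorcs3 was the 1 higher. Bdnf, brain-derived neurotrophic factor, was at 109 and 82.9 CPM against 36.9 to 58.0 CPM, and missed the call because its log2 difference from Rorb-high nuclei was 0.95 (1.11 and 1.15 from the other gates). Of 19 layer 4/5 type genes tested, Il1rapl2, a synaptic organiser, and Sulf2, a heparan sulfate endosulfatase, were lower, and the list's medians were -0.82, -0.94 and -1.16. Unc13c was the 1 of 26 synaptic vesicle genes, Sema3e the 1 of 36 axon guidance genes and Htr1f the 1 of 26 neuromodulator receptor genes that passed, all lower. No gene passed in either direction among 26 potassium channel, 25 sodium and calcium channel, 30 synaptic adhesion, 22 cadherin, 14 GABA receptor and 35 cAMP and calcium signalling genes, or among 28 upper-layer and projection transcription factor genes.

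The 374 nuclei were not uniform. Per nucleus the layer 2/3 type list made up 13.1, 88.2 and 168 of 10000 UMIs at the lowest, median and highest in AAV-CTRL, and 20.0, 91.6 and 245 in AAV-VEGF-C. The quartiles were 68.3 and 113, and 69.1 and 117. Leiden clustering divided the nuclei into 5 clusters, each drawn from both libraries. Clusters were made from the same counts, so their leading genes are a description with no test. Cluster 4 (169 nuclei, 69 and 100 by library) was led by Tcerg1l, Dnase1l3, Tmem47, Wfs1, Trpc6 and Clec18a. Trpc6 stood there at 191 CPM against 58.9 CPM in the other nuclei, and Wfs1 at 58.9 against 17.5 CPM. Cluster 2 (122 nuclei, 62 and 60) was led by Kctd8, an auxiliary subunit of GABA-B receptors, Tmc1, Gm765, Robo3, an axon guidance receptor, and the serotonin receptor gene Htr7. Both carried about the same sum of layer 2/3 type genes, 10119 and 10218 CPM.

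The smaller clusters departed further. Cluster 3 (34 nuclei, 17 and 17) was led by Ndst4, Dpyd, Ttr, Htr2c and Tox3, with 8428 CPM of the layer 2/3 type list and a median of 9133.5 UMIs per nucleus, the highest of the 5. Ttr had a UMI in 38.2% of these nuclei and in 26.8% of the others, and Htr2c in 20.6% and 15.3%. Each of these 2 genes was thus missing from most nuclei of the cluster. Cluster 5 (28 nuclei, 13 and 15) was led by Rmst, Zmat4, Kcnab1, Gfra2 and St6galnac5, held 5934 CPM of the layer 2/3 and 3660 CPM of the layer 4/5 type list, and had no Otof UMI. Cluster 1 (21 nuclei, 7 and 14) was led by Oprk1, the kappa opioid receptor gene, Tmem163, Gfra1, Olfm3 and Galnt14. Oprk1 had a UMI in 81.0% of its nuclei and in 0.850% of the others. Oprk1 and Tmem163 belong to the layer 6 type list, which summed to 1452 CPM in cluster 1 against 235 to 398 CPM in the other 4. Most of the 1452 CPM came from these leading genes, with Tmem163 at 805 and Oprk1 at 293 CPM. The sum is therefore no separate sign of a layer 6 type. The layer 2/3 sum of cluster 1 was 6028 CPM, with Lrrtm4 at 941 CPM against 5188 CPM in cluster 4 and Cdh13 at 1061 against 186 CPM. Its hippocampal type sum was 1467 CPM and its oligodendrocyte sum 1437 CPM. The layer 2/3 sums of clusters 1 and 5 lay within the range of the other excitatory gates, so these nuclei did not stand out by the list behind the name.

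By library, cluster 1 held 4.17% and 6.80% of the Cux2 nuclei, cluster 2 36.9% and 29.1%, cluster 3 10.1% and 8.25%, cluster 4 41.1% and 48.5%, and cluster 5 7.74% and 7.28%. Cdh13 and Trpc6 were each seen in about the same number of nuclei, 132 and 142 of 374, and together in 56 (15.0%). Chrm2 was seen in 84 nuclei, with Cdh13 in 29 and with Trpc6 in 31.

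**Figure D3:**
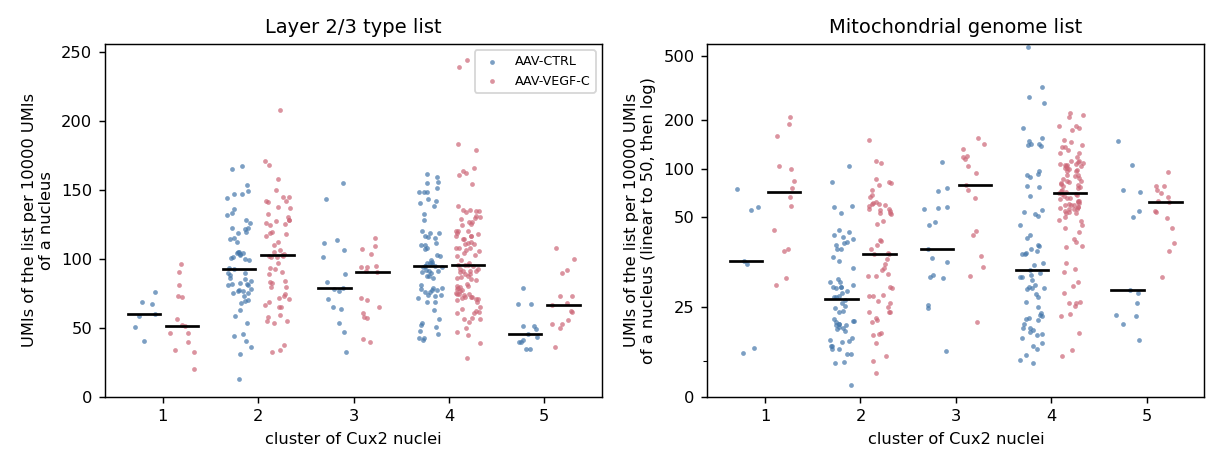
Each point is 1 of the 374 Cux2 nuclei, by cluster and library, with the layer 2/3 type list (left) and the mitochondrial genome list (right, linear to 50 and then log) in UMIs per 10000 UMIs of the nucleus. Bars are medians over nuclei, which for all clusters together were 88.2 and 91.6 for the layer 2/3 type list and 32.3 and 60.1 for the mitochondrial list in AAV-CTRL and AAV-VEGF-C.

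The effect of AAV-VEGF-C was compared between the sums of 168 and 206 nuclei. With 1 library per treatment there is no test, and differences compare 2 libraries, not the treatments. Of 2353 genes with at least 200 UMIs over both sums, 28 (1.19%) were more than 1.5-fold higher in AAV-VEGF-C and 5 (0.212%) more than 1.5-fold lower. The median log2 ratio was 0.003, with 5th and 95th percentiles of -0.30 and 0.38. The exact interval lay above 0 for 233 genes and below 0 for 183. Transcripts of other cell types also differed between the sums. The 10 oligodendrocyte genes summed to 365 and 544 CPM (0.58, interval 0.40 to 0.75), with 1 AAV-VEGF-C nucleus at 154.5 of 10000 UMIs. The 10 vascular genes summed to 25.6 and 70.3 CPM (1.46, interval 0.86 to 2.10, and 0.78 after thinning). The 10 interneuron genes had a ratio of -0.27 (interval -0.47 to -0.08), the 9 microglial genes -0.36 (-0.72 to 0.003) and the 10 astrocyte genes 0.06 (-0.07 to 0.18). For the interneuron list the highest nucleus stood at 158 of 10000 UMIs in AAV-CTRL and at 91.0 in AAV-VEGF-C. Its medians over nuclei were 1.79 and 1.63. The part of these other cell types in the ratios of other genes was not tested. The genes past 1.5-fold depended on the nuclei and the depth. With a Cux2 minimum of 5 UMIs 12 and 4 genes passed, or 1.73% and 0.576% of the 695 genes that still reached 200 UMIs. After thinning 11 and 3 of 847 genes passed, or 1.30% and 0.354%. Of the 28 higher genes, 2 and 3 were among those called in these settings.

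Ribosomal protein genes led the higher side. Rps29, a component of the small ribosomal subunit (chromosome 12, 69157722 to 69159186, minus strand), was at 208 and 382 CPM (log2 ratio 0.87, interval 0.65 to 1.10), and a UMI was seen in 68.5% and 91.7% of the nuclei. Rpl39 was at 51.2 and 99.1 CPM (0.95, interval 0.51 to 1.41). The ratios of Rpl41, Rpl38, Rps14 and Rps24 were 0.72, 0.72, 0.78 and 0.67. A list of all 83 cytosolic ribosomal protein genes, made after these values were seen, held 36 with enough UMIs. Of these 11 were past 1.5-fold higher and none lower, 34 had a ratio above 0, and the median was 0.45 against 0.003 over all genes. The same median was 0.44 in Rorb-high, 0.45 in Hs3st4-high and 0.33 in Tshz2-high nuclei, and 0.42 in oligodendrocyte nuclei of the same 2 libraries. The ratio was thus about as large in the other kinds of nuclei, oligodendrocytes included.

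Transcripts of the mitochondrial genome were also higher in the AAV-VEGF-C sum. The 13 protein-coding genes summed to 4855 and 6811 CPM (log2 ratio 0.49, interval 0.44 to 0.54), 0.485% and 0.681% of all UMIs, or 0.471% and 0.690% after thinning. mt-Co1, a subunit of cytochrome c oxidase, was at 760 and 1190 CPM (0.65, interval 0.53 to 0.77) and was the 1 of 10 genes with enough UMIs past 1.5-fold. The intervals of 9 of the 10 lay above 0. The median was 0.53 in Cux2 nuclei, 0.46, 0.62 and 0.41 in Rorb-high, Hs3st4-high and Tshz2-high nuclei and 0.30 in oligodendrocyte nuclei. Nuclear genes of the respiratory chain had a median of 0.24 over 11 genes, and 0.22 to 0.32 in the other excitatory gates. The medians of these 3 groups of genes lay above 0 in all 5 kinds of nuclei. The abundant nuclear RNAs, among them Malat1, summed to 95464 and 89901 CPM (-0.09, interval -0.10 to -0.08), with 4 of 7 intervals below 0, and their summed ratio was -0.07, -0.08 and -0.07 in the other excitatory gates and 0.08 in oligodendrocyte nuclei. Their part in the ratios above was not tested. With 1 library per treatment, a difference between libraries and an effect of the treatment cannot be told apart.

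The ratio was highest for short genes. The 214 genes that span up to 10 kb had a median log2 ratio of 0.25, and 19 of them (8.88%) were past 1.5-fold higher, of the 28 in all. This class includes genes reported above, such as Rps29 and mt-Co1, so it is not separate from the ribosomal and mitochondrial groups. The overlap was not counted. The 261 genes of 10 to 30 kb had a median of 0.10, and those of 30 to 100 kb, 100 to 300 kb and over 300 kb had medians of -0.01, -0.03 and -0.03. In oligodendrocyte nuclei the same classes ran from 0.21 for the shortest to -0.26 for the longest. Spans were found for 2351 of the 2353 genes.

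**Figure D4:**
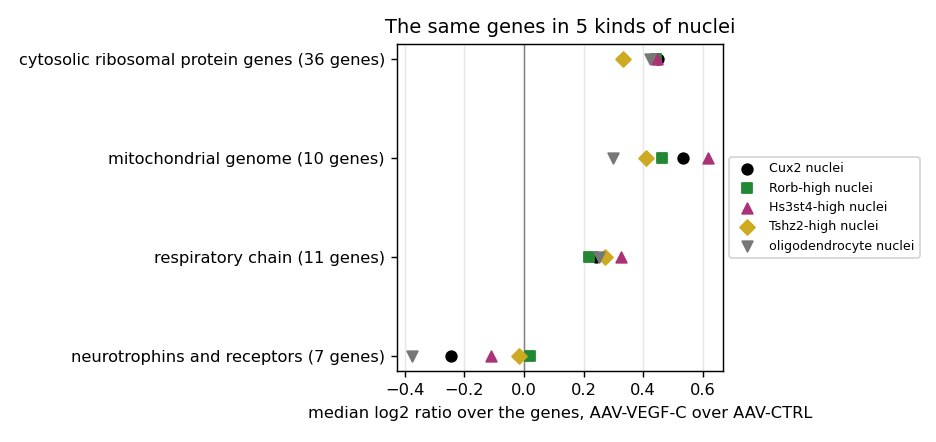
Median log2 ratio of AAV-VEGF-C over AAV-CTRL for gene lists in Cux2, Rorb-high, Hs3st4-high, Tshz2-high and oligodendrocyte nuclei of the libraries labelled cortex. The medians of cytosolic ribosomal protein genes lay between 0.33 and 0.45 in all 5 kinds of nuclei, and those of the mitochondrial genome between 0.30 and 0.62.

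Other genes among the 12 highest were of mixed function. The glycolytic gene Gapdh was at 74.2 and 122 CPM (0.71) and Eno2 at 111 and 179 CPM (0.69). In Rorb-high and Hs3st4-high nuclei Gapdh had ratios of 0.50 and 0.45, and Eno2 of 0.33 and 0.34. Cul3, a scaffold of ubiquitin ligases, had a ratio of 0.75 (interval 0.32 to 1.19), with -0.23 in Rorb-high and 0.09 in Hs3st4-high nuclei. Dzank1 had 0.76 (0.33 to 1.21), with 0.10 and -0.07 in the same gates, Nceh1, a cholesteryl ester hydrolase, 0.70 with 0.15 and -0.02, and Cnot3, a subunit of the CCR4-NOT deadenylase, 0.73 with 0.18 and 0.18. The intervals of these 4 genes in those gates included 0, except that of Cnot3 in Hs3st4-high nuclei, which began at 0.0002. Whether the ratios differ between gates was not tested.

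The low end was set in part by single nuclei. Erbb4, the neuregulin receptor of interneurons (chromosome 1, 68032186 to 69108059, minus strand), had the lowest ratio, -1.26, with 123 and 51.3 CPM, but 1 AAV-CTRL nucleus held 45.1% of its UMIs there. Without the top nucleus of each library the ratio was -0.54. For Ttr, transthyretin of the choroid plexus, 1 nucleus held 72.6% of the AAV-CTRL UMIs, and the ratio of -0.55 became 0.94 without the top nuclei. For the other lowest genes no nucleus held more than 5.62% of a library's UMIs. 5031415H12Rik had a ratio of -0.73 (112 and 67.5 CPM), Pcdh11x, a protocadherin, -0.71, the nuclear import receptor Tnpo1 -0.62, the SUMO ligase Nsmce2 -0.60, and Pantr1, a long noncoding RNA beside Pou3f3, -0.53. Rab11fip3 (-0.53), Gm28375 (-0.52), Ndfip2 (-0.51), the immediate early gene Nr4a1 (-0.51) and Kdm7a (-0.49) completed the 12. In Hs3st4-high nuclei Pcdh11x had a ratio of 0.46 and Nr4a1 of -0.36.

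**Figure D5:**
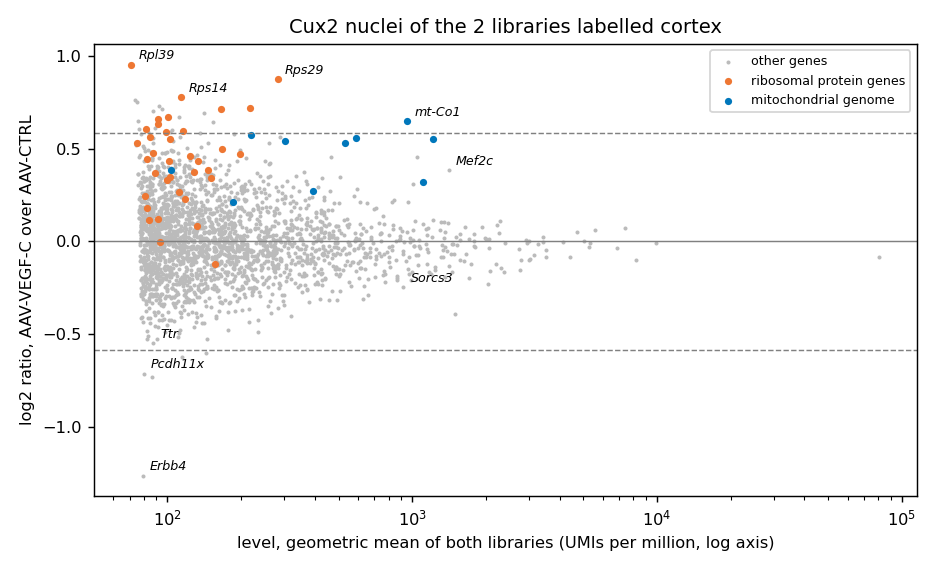
Log2 ratio of AAV-VEGF-C over AAV-CTRL in Cux2 nuclei against level (geometric mean of both libraries, CPM, log axis) for 2353 genes with at least 200 UMIs, with dashed lines at 1.5-fold. Ribosomal protein genes such as Rps29 (0.87) and genes of the mitochondrial genome such as mt-Co1 (0.65) lie mostly above 0, and Erbb4 (-1.26) is the lowest.

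VEGF ligands and receptors were scarce in Cux2 nuclei. Flt4, the receptor of VEGF-C, had 1 and 0 UMIs and Kdr 3 and 1, and a count of 0 in AAV-VEGF-C allows up to 2.59 CPM of Flt4 by the exact Poisson interval. Vegfc had 14 and 18 UMIs, or 11.9 CPM (interval 6.53 to 20.0) and 12.6 CPM (7.50 to 20.0), so that its level was not distinguishable between the 2 sums. Whether transcripts of the vector could be counted as Vegfc is not given in the sources used here. The neuropilins were detected: Nrp1 at 54.6 and 60.4 CPM, with a ratio of 0.15, and Nrp2 at 75.1 and 40.7 CPM from 88 and 58 UMIs. The ratio of Nrp2 was -0.88 (interval -1.39 to -0.39), at fewer UMIs than the minimum for a call. In the other gates its ratio was 0.29, 0.16 and -0.17.

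Of 12 neurotrophin and receptor genes, 7 had enough UMIs. None of the 7 passed 1.5-fold, 3 intervals lay below 0 and 4 included 0, against 183 of 2353 below 0 over all genes, and the median ratio was -0.24. Sorcs3 was at 999.9 and 844 CPM (-0.24), Sorcs1 at 304 and 233 CPM (-0.39, interval -0.61 to -0.17) and Bdnf at 109 and 82.9 CPM (-0.40, interval -0.77 to -0.03). The BDNF receptor gene Ntrk2 was at 977 and 908 CPM (-0.11) and the neurotrophin 3 receptor gene Ntrk3 at 1024 and 1007 CPM (-0.02). The list's median was 0.02, -0.11 and -0.02 in Rorb-high, Hs3st4-high and Tshz2-high nuclei and -0.38 in oligodendrocyte nuclei. Of 4 immediate early and activity genes with enough UMIs, the median was -0.23 and 2 intervals lay below 0.

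Among layer identity lists, the summed ratios of the layer 4/5, layer 6, near-projecting and hippocampal type lists had intervals that included 0. That of the olfactory-cortex type list was 0.19 (interval 0.06 to 0.31), with 1 of 4 genes past 1.5-fold higher. That of upper-layer and projection transcription factor genes was 0.10 (0.05 to 0.15), with 0 of 11 past 1.5-fold. The layer 2/3 type list had a median of 0.09 over 14 genes, none past 1.5-fold, and summed to 9148 and 9795 CPM (ratio 0.10, interval 0.06 to 0.14). Mef2c was the 1 of these with an interval above 0, at 1232 and 1607 CPM (0.38, interval 0.29 to 0.48), and its ratio was 0.27, 0.12 and 0.35 in Rorb-high, Hs3st4-high and Tshz2-high nuclei. Lrrtm4 was at 4642 and 4801 CPM (0.05). Glutamate receptors had a median of -0.01 over 17 genes, potassium channels -0.01 over 19 and synaptic adhesion genes -0.02 over 24. That of cAMP and calcium signalling genes was -0.01 over 29, of GABA receptors 0.05 over 11 and of sodium and calcium channels -0.09 over 18. In this order 2, 4, 5, 2, 0 and 5 intervals lay below 0 and 0, 1, 4, 1, 1 and 1 above, against 183 and 233 of all 2353 genes. Intervals of the summed ratios included 0 except for glutamate receptors (-0.04), potassium channels (-0.03) and sodium and calcium channels (-0.09), where they lay below 0. Over these receptor, channel, signalling and adhesion lists no gene was past 1.5-fold lower. The 1 past 1.5-fold higher was Slitrk1 (ratio 0.61, interval from 0.22, named after its value was seen). Among 23 synaptic vesicle genes, median 0.01, the highest were Syp, synaptophysin, with 217 and 313 CPM (0.53, interval 0.31 to 0.76) and Cplx2, complexin 2, with 226 and 303 CPM (0.42).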

How the data were processed

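The authors pooled tissue of 5 mice per treatment, prepared 10x Genomics 3′ libraries and deposited, per library, UMI counts per gene and nucleus, aligned to mm10. Cell Ranger is given as version 5.1.1 in the submitters' processing notes and as 5.0.1 per the file headers. Whether intronic reads were counted is not given in the sources used here. The study's own test over nuclei was not used.

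Counts were summed over nuclei of a gate and library and expressed per 1000000 UMIs. The gates were compared with edgeR 4.0.16 in R 4.3.3 (quasi-likelihood test, TMM, genes with low counts removed by filterByExpr, Benjamini-Hochberg adjustment over all genes tested). On simulated data it recovered large changes in abundant genes. The simulation did not cover smaller changes, scarcer genes or the choice of gates on the same counts. The AAV groups were compared by log2 ratios with exact 95% binomial intervals and no test. Clusters used scanpy 1.11.5 and Leiden. Levels have exact Poisson intervals. Gene positions are GENCODE vM21. Genes were named by rule: the 12 with the largest smallest difference in each direction, with at least 50 UMIs in Cux2 nuclei or the lowest other gate, the 12 highest and lowest AAV ratios, and members of gene lists. Cux2 nuclei and lists were chosen with earlier results of these data known, and the ribosomal list after its values were seen. Alternatives covered other limits of the rule, doublets, thinning, scaling, filters and DESeq2 1.42.0.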

Additional observations from a re-analysis of the deposited data

Results flagged for a closer look

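The rule was also met by nuclei outside the comparisons, in the libraries labelled striatum. In the library labelled striatum AAV-CTRL 12 of 23724 nuclei met it, or 0.0506% (95% exact binomial interval 0.0261 to 0.0883), and in that labelled striatum AAV-VEGF-C 10 of 17466, or 0.0573% (0.0275 to 0.105). These nuclei had medians of 6877 and 9355 UMIs. Their sums of the 22 layer 2/3 type genes were 4993 and 4974 CPM, below 9148 and 9795 CPM in the Cux2 nuclei of the libraries labelled cortex, and their sums of the 10 olfactory-cortex type genes were 2404 and 3060 CPM against 769 and 876 CPM. No test was made on so few nuclei.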

How the results depend on the processing

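The ratio of the shares of Cux2 nuclei between treatments stayed within its interval in 4 of 4 alternatives, but the shares followed the limits: 1.71% and 1.68% with a Cux2 minimum of 2 UMIs, 0.320% and 0.309% with 5, and 0.711% and 0.776% with no Rorb UMI. Against the other gates, DESeq2 gave 20 higher and 24 lower genes, all among the 44 and 43, and thinning gave 25 and 20, of which 17 and 12 were shared. With Rorb-high nuclei bearing astrocyte transcripts left out (an alternative chosen after seeing the data), 28 genes were lower, and Unc13c (1.02) and Fgfr1 (0.57) changed sign. For the genes of this comparison named for the size of their smallest difference, 197 of 214 repeats were counted as the same and 15 lost the call with the direction kept. Among these 15 were Clec18a, Prkg2, Gm20063, Gm45846, Unc13c, Hunk, Htr1f and Fgfr1 under thinning, and Qrfpr, Otof, Gm11655 and Htr1f under DESeq2. Qrfpr and Gm11655 were not tested after thinning and have no repeat there. The 197 include 24 and 24 repeats with 1 library left out, for which only the direction was checked. Some of those differences were below the size of a call, such as -0.59 for Htr1f and 0.60 for Gm11655. Between treatments, genes past 1.5-fold higher and lower numbered 12 and 4 of 695 with a Cux2 minimum of 5, 11 and 3 of 847 after thinning, 32 and 10 of 2353 with each nucleus weighted equally, 312 and 176 of 7168 at a minimum of 50 UMIs per gene, and 1 and 0 of 355 at a minimum of 1000 UMIs. The share higher was 1.73%, 1.30%, 1.36%, 4.35% and 0.282% in this order, against 1.19%. The log2 ratio of the mitochondrial genome sum was 0.63 with a Cux2 minimum of 5 and 0.55 after thinning. The cause of these moves was not tested. Of 216 repeats of the named treatment ratios 196 stayed within the interval, and of 248 repeats of list sums 215 did. These repeats include rescaling by TMM or DESeq2 factors, which shifts all ratios alike and moved 0 of the 24 named ratios. A Cux2 minimum of 5 UMIs moved 6 named ratios and 15 list sums, and thinning moved 7 and 5. Depth limits single genes: Rpl39, with 60 and 141 UMIs, has an interval of 0.51 to 1.41, and Flt4 and Kdr had at most 3 UMIs. Between treatments, no paired analysis was possible because each treatment has 1 library of Cux2 nuclei labelled cortex, and the gate comparison has the library as a block. Without that block 41 genes were higher and 33 lower.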
